A study of Mus musculus with 6 samples.

Results

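The splicing factor and hnRNP genes are those that encode SR proteins, heterogeneous nuclear ribonucleoproteins, subunits of the SF3 complex, core proteins of the small nuclear ribonucleoproteins and the U2AF proteins. They were chosen by gene symbol from the probesets annotated to 1 gene, and Tra2a, Tra2b and Syncrip were added by name. The rule used no measured value but was set with earlier results of these data known. Tra2a, Tra2b and Syncrip are on the list of differences of the study that reported the data. The rule found 53 genes with 158 probesets, of 18193 genes and 45037 probesets in all. The families held 12 SR genes with Tra2a and Tra2b, 20 hnRNP genes with Syncrip, 9 SF3 genes, 9 Snrp genes and 3 U2af genes. Hippocampal RNA of 3 Glud1 Tg and 3 wt mice, with 1 array per mouse, was measured on the Affymetrix Mouse Genome 430 2.0 array. In the Tg mice, an added glutamate dehydrogenase gene (Glud1) is driven by the promoter of neuron-specific enolase (Nse), which directs it to neurons. The Tg and the wt mice were 9-month-old males, and the wt mice were age-matched and of the same C57BL/6 background. The comparison asks how the messenger RNA of these genes differs between hippocampi with and without the neuronal Glud1 transgene.

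Introns are removed from a new transcript by the spliceosome, which assembles from small nuclear ribonucleoproteins, most of them built on a ring of Sm proteins. U2AF recognizes the end of the intron, the SF3 complex holds the branch point, and SR proteins and hnRNP proteins bound along the transcript favour or block the use of nearby splice sites. Many genes of these families make several transcripts of their own, including ones with retained introns or with exons that carry a stop codon, and many hnRNP proteins also carry, stabilize or repress messenger RNAs in neurons.

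Each array value is a MAS5 signal, an intensity in arbitrary units scaled by the authors' software to the same trimmed mean (500.0) on all 6 arrays. Only probesets above the lowest 31% in mean level over the 6 arrays were analysed, which gave 31075 probesets, the dimmest with a mean signal of 48.75. All 53 genes kept at least 1 probeset, with 149 of their 158 probesets. Fold changes are Tg minus wt on the scale log2(signal + 16), with the standard error (SE) and the Benjamini-Hochberg adjusted p of limma over all kept probesets. In 15 genes a single probeset was kept, and 38 genes had several. Where there were several, the one with the highest mean signal over all arrays stands for the gene and is called its brightest probeset, and the other 96 are called its dimmer probesets. Signals of different probesets are not compared as amounts of RNA, since each probeset has its own response. In RNA of whole tissue, fewer cells of a type and less RNA per cell cannot be told apart.

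At the brightest probesets, the signals of the splicing factor and hnRNP genes lay close together in Tg and wt hippocampi. In 46 of 53 genes the log2 fold change was within 0.2 of 0, and the median was 0.033, against -0.031 over all 13853 genes. The other 7 were Srsf9 (0.55), Hnrnpm (0.28), Snrpd3 (0.28), Sf3a1 (0.24) and Hnrnpl (0.21) above 0, and Srsf10 (-0.23) and Snrpn (-0.21) below 0. Of these, Srsf9 stayed between 0.47 and 0.66 whichever array was left out. The value was 0.18 in Hnrnpm and 0.043 in Hnrnpl without wt 1, 0.022 in Snrpd3 without wt 2, 0.12 in Sf3a1 without wt 3, and -0.07 in Srsf10 and 0.023 in Snrpn without Tg 2. Limma called 0 of 53 genes at an adjusted p under 0.05, as it called 0 of all genes (0%), and Cyber-T, run as another test, also called 0 of the 53. At an unadjusted p under 0.05, 1 gene was higher in Tg (Srsf9) and 0 were lower, against 2.9% and 4.97% of all genes. The Tg and wt arrays did not overlap in 4 genes that were higher in Tg (Srsf9, Hnrnpm, Hnrnph1 and U2af1) and in 3 that were lower (Hnrnpc, Snrpb and U2af2), against 5.2% and 8.81% of all genes. With 3 arrays a group, an exact two-sided permutation test of a single gene cannot go below p = 0.1. The fold change was above 0 in 36 of 53 genes (67.9%), against 44.1% of all genes.

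Among the SR genes, Srsf9 had the smallest p. Srsf9 encodes a short SR protein that takes part in the choice of splice sites. Its only probeset, 1417727_at, gave signals of 1919.5, 1559.8 and 2052 on the Tg arrays, against 1134, 1264 and 1359.7 on the wt arrays. All 3 Tg arrays lay above every wt array, with means of 1844 ± 255 in Tg and 1252 ± 113 in wt (SD, n = 3 each). The log2 fold change was 0.55 (SE 0.12, adjusted p = 0.227), so that the gene did not pass the threshold once all kept probesets were taken into account, and the adjusted p by Cyber-T was 0.0669. Srsf5, an SR protein gene with 1 probeset, had signals of 9876, 10014 and 10851 on the Tg arrays, against 9825, 8553 and 10672 on the wt arrays. The groups overlapped, and the log2 fold change was 0.086. Srsf1 encodes the founding member of the family, which promotes the recognition of exons. At 1434972_x_at its signals were 4182, 4197 and 4041 on the Tg arrays, against 3457, 4154 and 4522 on the wt arrays, with the Tg arrays inside the range of the wt arrays. Srsf11, which encodes an SR-related protein, had 4462, 4414 and 4486 on the Tg arrays, against 4579, 4339 and 4251 on the wt arrays, again with overlap. Among the SR genes with a fold change below 0, Srsf4 had the log2 fold change -0.16 (SE 0.11, adjusted p = 0.675) and Srsf10, whose product represses splicing when dephosphorylated, had -0.23 (SE 0.18, adjusted p = 0.717). The Tg and wt arrays overlapped in both. Tra2a and Tra2b are the homologs of the fly transformer-2 splicing regulator and bind purine-rich exonic enhancers. At their brightest probesets the log2 fold changes were 0.099 (SE 0.16, adjusted p = 0.878) for Tra2a and -0.0087 (SE 0.079, adjusted p = 0.98) for Tra2b. The signals of Tra2b ranged between 3384.7 and 3435.5 on the Tg arrays and between 3344 and 3492 on the wt arrays.

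Of the 20 hnRNP genes, 14 had a fold change above 0 at the brightest probeset and 6 below 0, and none had an unadjusted p under 0.05. Hnrnpm, which regulates alternative exons, had signals of 1074, 874 and 995 on the Tg arrays, against 693, 873 and 849 on the wt arrays. The lowest Tg array and the highest wt array were 874.0 and 872.6, so that the groups were just apart, and the log2 fold change was 0.28 (SE 0.13, adjusted p = 0.532). Hnrnph1 encodes a protein that binds runs of guanines. Its signals were 6279, 6295 and 6066 on the Tg arrays, against 5181, 5943 and 5829 on the wt arrays, with every Tg array above every wt array and wt 1 lowest of all. The log2 fold change was 0.14 (SE 0.081, adjusted p = 0.611), and 0.078 without wt 1. Hnrnpc, which binds runs of uridines and packages new transcripts, lay the other way, with 6208, 6059.7 and 6290.4 on the Tg arrays, against 6597, 6916 and 6377 on the wt arrays. All 3 Tg arrays were below every wt array, with the log2 fold change estimated at -0.099 (SE 0.074, adjusted p = 0.697). Hnrnpdl, Hnrnpk and Hnrnpa2b1 differed little at these probesets, with log2 fold changes of -0.02, 0.034 and -0.00096, each with an SE of about 0.08. Hnrnpdl is a relative of Hnrnpd, which binds AU-rich elements, Hnrnpk binds cytosine-rich RNA, and Hnrnpa2b1 takes part in the transport of messenger RNAs along dendrites. For Hnrnpa2b1 the mean signals were 7606 ± 217 in Tg and 7618 ± 450.2 in wt (SD, n = 3 each).

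The SF3 complex holds the branch point of the intron within the U2 particle, and 8 of its 9 genes had a fold change above 0 at the brightest probeset. None had groups that did not overlap. Sf3b1, the largest subunit of SF3B, had signals of 4937, 4962 and 5621 on the Tg arrays, against 4976, 4048 and 5557 on the wt arrays. Array wt 2 was the lowest, and the log2 fold change was 0.099 (SE 0.11, adjusted p = 0.809). Sf3b3 had 1253, 1386 and 1409.5 on the Tg arrays, against 1052, 1350.2 and 1136 on the wt arrays, with wt 2 inside the range of the Tg arrays and a log2 fold change estimated at 0.20 (SE 0.12, adjusted p = 0.629). Sf3b5 and Sf3b6 encode small subunits of SF3B, of which SF3B6 touches the branch-point adenosine. Their log2 fold changes were 0.076 (SE 0.14, adjusted p = 0.887) for Sf3b5 and -0.092 (SE 0.094, adjusted p = 0.787) for Sf3b6.

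The Snrp genes encode the Sm proteins and proteins particular to the U1 and U2 particles. Of the 9 genes measured, 4 had a fold change above 0 and 5 below 0. Snrpb encodes the Sm proteins B and B′. At 1437193_s_at its signals were 2243, 2353 and 2276 on the Tg arrays, against 2364, 2561 and 2556 on the wt arrays. Every Tg array lay below every wt array, with Tg 2 and wt 1 close together, and the log2 fold change was -0.12 (SE 0.088, adjusted p = 0.686). Snrpe and Snrpg, both of the Sm ring, had log2 fold changes of -0.074 (SE 0.094, adjusted p = 0.832) and 0.10 (SE 0.10, adjusted p = 0.785), with overlapping groups. Snrpn, which encodes the neuronal Sm protein N and is expressed from the paternal chromosome, had 1 probeset of its own (1432096_at), with signals of 505, 299.7 and 482 on the Tg arrays, against 601, 461 and 412 on the wt arrays. Tg 2 was the lowest and wt 1 the highest of its arrays, with overlap, and other probesets for Snrpn are shared with the overlapping gene Snurf and were not counted here. U2AF was represented by 3 genes with 1 probeset each. U2af1, the small subunit that contacts the end of the intron, had 1352, 1359 and 1469 on the Tg arrays, against 1159.5, 1284 and 1256 on the wt arrays, with every Tg array above every wt array. U2af2, the large subunit that binds the pyrimidine tract, had 1299, 1273 and 1330.4 on the Tg arrays, against 1444, 1358 and 1384 on the wt arrays, where the 3 Tg arrays were the lowest of the 6. Their log2 fold changes were 0.17 (SE 0.10, adjusted p = 0.621) for U2af1 and -0.10 (SE 0.099, adjusted p = 0.776) for U2af2. U2af1l4, which encodes a relative of the small subunit, had 0.039.

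**Figure D1:**
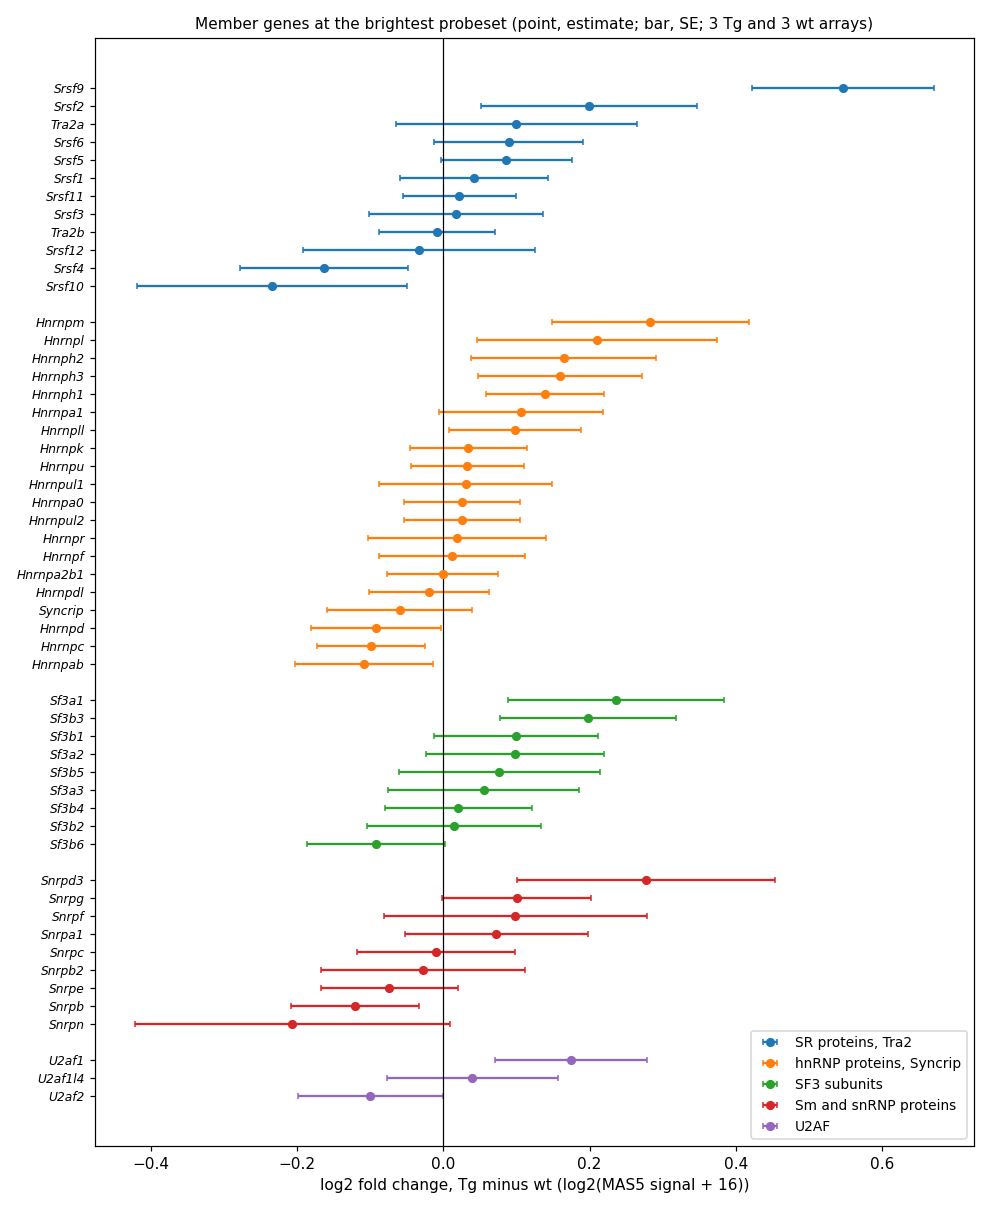
Log2 fold change, Tg minus wt, of the 53 splicing factor and hnRNP genes at the brightest probeset, by family, on the log2(signal + 16) scale (points, limma estimates over 3 Tg and 3 wt arrays; bars, SE). Srsf9 stands at 0.55, and 46 of the 53 genes lie within 0.2 of 0.

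The share of genes with a fold change above 0 depended on 1 wt array and on the scaling. The deviation of each array from the 6-array mean of a probeset had a median over the 53 brightest probesets of 0.055, 0.00008 and 0.012 on Tg 1, Tg 2 and Tg 3, against -0.068, 0.026 and 0.018 on wt 1, wt 2 and wt 3. Array wt 1 was thus the lowest of the 6, while over all genes its median was 0.016. Without wt 1, 26 of 53 genes had a fold change above 0 (49.1%), against 42.9% of all genes. With each array centred on its median, the count was 22 of 53 (41.5%), against 32% of all genes, and after quantile normalization it was 40 of 53 (75.5%), against 40.7%.

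**Figure D2:**
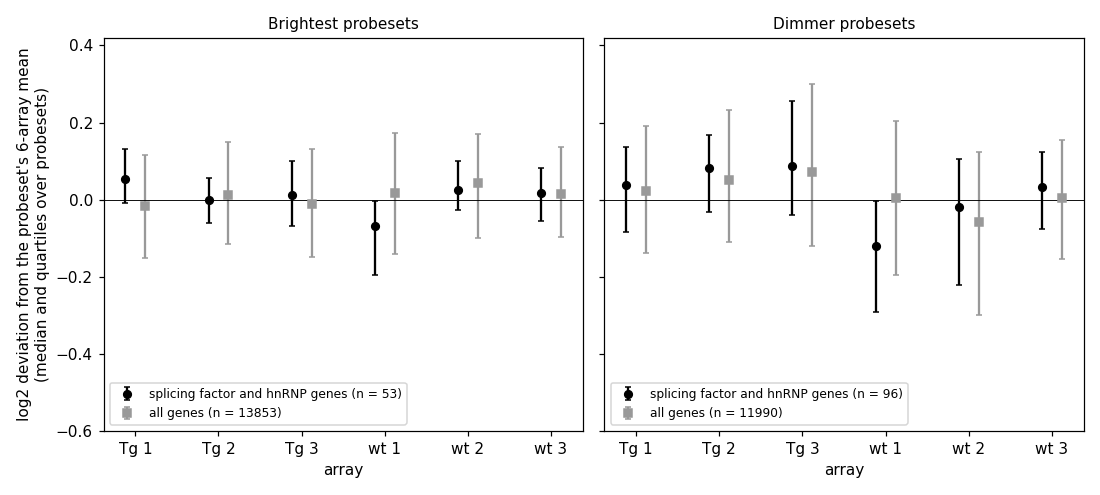
Deviation of each array from the probeset's mean over the 6 arrays (log2(signal + 16)), at the brightest probesets (left) and the dimmer probesets (right), for the splicing factor and hnRNP genes (black) and all genes (grey). Points are medians and bars run between the quartiles over probesets. Array wt 1 has the lowest median for these genes in both panels, -0.068 and -0.12.

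Markers of the cell types in the tissue were read from the same arrays. Neuron markers were present, with 3 of 8 above 0 in their fold change and summed signals of 108152 to 115581 in Tg and 111208 to 118785 in wt. All 14 markers of dentate granule cells were above 0 (sums of 25899.5 to 28634.5 in Tg and 20449.5 to 25879.5 in wt), and all 9 measured markers of retrohippocampal cortex were below 0 (5939 to 6726 in Tg and 8798 to 9501 in wt). Of the glial and vascular markers, those of astrocytes were above 0 in 1 of 8 (50991.5 to 53734 in Tg and 57346 to 58549.9 in wt), of oligodendrocytes in 3 of 7 (65054 to 81223 in Tg and 67502 to 81554 in wt), of microglia in 3 of 8 (12721 to 13270.4 in Tg and 13694 to 14862 in wt) and of endothelial cells in 1 of 8 (3292 to 4266 in Tg and 4087 to 4331 in wt). Limma called none of these markers. At an unadjusted p under 0.05, 5 dentate markers were higher in Tg, and 5 retrohippocampal, 2 astrocyte, 1 neuron and 1 microglia marker were lower. Over all genes, 44.1% were above 0, and 2.9% were higher and 4.97% lower at that p. The dentate markers Dsp, Lct, Prox1 and Sema5a and those 5 retrohippocampal markers are on the study's list of differences from these arrays. Their direction is therefore not evidence of its own. No measured marker was at 0, and their part in the results for the splicing genes was not tested.

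At the dimmer probesets, how often the fold changes of the splicing factor and hnRNP genes were above 0 again turned on wt 1. Of 96 dimmer probesets, 69 (71.9%) were above 0, with a median of 0.089, against 59.6% and a median of 0.069 over all 11990 dimmer probesets. Without wt 1, 56 of the 96 were above 0 (58.3%), with a median of 0.041, against 59.4% and a median of 0.071 over all dimmer probesets. With arrays centred on their median, 53 were above 0 (55.2%), against 50.3%. Limma called 0 of the 96, as it called 0 of all dimmer probesets (0%). Cyber-T called 1, Hnrnpr 1438807_at, which is among the 7 probesets of the study's list given below. At an unadjusted p under 0.05, 10 probesets were higher in Tg (10.4%, against 7.73% of all dimmer probesets) and 2 were lower (2.08%, against 2.84%). The groups did not overlap in 16 that were higher (16.7%, against 10.7%) and in 3 that were lower (3.12%, against 4.92%). Among the 96 are 7 probesets on the list of differences that the study drew from the present arrays, and because the study chose them on these arrays, their direction is not evidence of its own. Without them, 62 of 89 were above 0, 5 had an unadjusted p under 0.05 and were higher in Tg (5.62%), and 11 did not overlap and were higher (12.4%).

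The families differed in this count, which was not tested. In the SR genes with Tra2a and Tra2b, 26 of 28 dimmer probesets were above 0 (92.9%, against 59.6% of all dimmer probesets) with a median of 0.19. Of the brightest ones, 8 of 12 were (66.7%, against 44.1% of all genes). Genes with probesets on the study's list include Tra2a, Tra2b and Srsf11, which were not set aside in these counts. Of the 28 dimmer ones, those above 0 numbered 24 after quantile normalization (85.7%, against 54.3% of all dimmer probesets). They numbered 20 with arrays centred on their median (71.4%, against 50.3%) and 21 without wt 1 (75%, against 59.4%). In the hnRNP genes 29 of 41 dimmer probesets were above 0 (70.7%), but 23 (56.1%, against 59.4% of all dimmer probesets) without wt 1 and 22 (53.7%, against 50.3%) with arrays centred on their median. In the fit with all arrays, 6 of the 10 with an unadjusted p under 0.05 and higher in Tg were theirs. This is 14.6% of the 41, against 7.73% of all dimmer probesets. Of these 6, Hnrnpab 1426114_at, Hnrnpr 1438807_at, Hnrnpu 1450849_at and Syncrip 1422769_at are on the study's list and were thus chosen on these arrays. In the SF3 genes 9 of 18 were above 0, and in the Snrp genes 5 of 9, with none of these higher in Tg at an unadjusted p under 0.05. The U2af genes had no dimmer probeset. Of the dimmer probesets whose name ends in _at alone, 42 of 54 were above 0 (77.8%, against 61.3% of all dimmer probesets so named), and of those whose suffix (a, s or x) marks probes that match several transcripts, 27 of 42 (64.3%, against 55.3%). On the dimmer probesets too, wt 1 was the lowest array, with a median deviation of -0.12, against 0.0051 over all genes.

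The arrays also differed in measures of RNA, which are given beside the result on dimmer probesets. The ratio of the 3′ to the 5′ control probeset of Actb was 1.64, 1.67 and 1.69 on the Tg arrays, against 1.86, 1.95 and 1.70 on the wt arrays, and that of Gapdh was 0.781, 0.782 and 0.800 in Tg, against 0.908, 0.811 and 0.752 in wt. For 18S ribosomal RNA, the 3′ control had signals of 1695, 975.5 and 3313 in Tg, against 13960.1, 10375 and 2287 in wt. Thus wt 1 and wt 2 stood apart in 18S signal and had the highest Actb ratios. Without both wt 1 and wt 2, which leaves wt 3 alone in its group, 49 of the 96 dimmer probesets were above 0 (51.0%, against 54.3% of all dimmer probesets), among them 18 of 28 SR and 19 of 41 hnRNP probesets. The part of these measures in the result was not tested.

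The 3 dimmer probesets with the smallest p belonged to Hnrnpr and Hnrnpu, whose brightest probesets showed little difference, and the next ones to Srsf10, Syncrip and Hnrnpab. Hnrnpr encodes a protein that binds messenger RNAs in axons, and Syncrip (hnRNP Q) is its close relative, found in neuronal transport granules. At the brightest probeset of Hnrnpr (1427129_a_at) the signals were 3023, 3169 and 3353 on the Tg arrays, against 2547, 3606 and 3364 on the wt arrays, with the Tg arrays inside the range of the wt arrays. At the dimmer probeset 1438807_at they were 819.8, 879.7 and 1144 on the Tg arrays, against 501, 463 and 604 on the wt arrays. Every Tg array lay above every wt array there, with means of 948 ± 172 in Tg and 523 ± 72.7 in wt (SD, n = 3 each) and a log2 fold change estimated at 0.83 (SE 0.16, adjusted p = 0.192). This probeset is on the study's list, which rests in part on Cyber-T on the same arrays. Its adjusted p by Cyber-T, 0.0373, is therefore not evidence of its own. Another dimmer probeset of Hnrnpr, 1452030_a_at, gave 566, 797 and 952 on the Tg arrays, against 398, 483 and 484 on the wt arrays. It was also without overlap, with a log2 fold change estimated at 0.72 (SE 0.19, adjusted p = 0.245), and it is not on the study's list. The other 2 dimmer probesets of Hnrnpr, 1437526_x_at and 1429232_at, had 0.23 and -0.12, with overlapping groups.

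Hnrnpu encodes scaffold attachment factor A, which binds nascent RNA and chromatin. At its brightest probeset (1423050_s_at) the signals were 8004, 7278 and 7693 on the Tg arrays, against 7049.5, 7804 and 7611 on the wt arrays, with overlap. At 1450849_at, which is on the study's list and was thus chosen on these arrays, they were 4434, 3945 and 4995 on the Tg arrays. The wt arrays had 3663, 2581 and 2968 there, with every Tg array above every wt array. The log2 fold changes were 0.033 (SE 0.077, adjusted p = 0.916) at the brightest probeset and 0.54 (SE 0.13, adjusted p = 0.227) at the dimmer one. All 4 dimmer probesets of Hnrnpu were above 0, from 0.12 to 0.54. In Syncrip the brightest probeset (1428546_at) gave 1317, 1442 and 1408 on the Tg arrays, against 1413, 1482 and 1447 on the wt arrays. The dimmer probeset 1422769_at, also on the study's list, gave 400.2, 544 and 667 on the Tg arrays, against 331, 247 and 399 on the wt arrays. Its lowest Tg array (400.2) and its highest wt array (399.0) almost met, and the log2 fold change was 0.69 (SE 0.22, adjusted p = 0.333), against -0.06 at the brightest.

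A pair of further genes showed a wide gap between probesets. Hnrnpab binds AU-rich elements and takes part in the transport of messenger RNAs in neurons. Its probeset 1426114_at, which is on the study's list, had signals of 5912, 8136 and 9536 on the Tg arrays, against 5406, 1039 and 4484 on the wt arrays. Array wt 2 was far below the other 5, and the log2 fold change, 1.39 (SE 0.45, adjusted p = 0.344), was 0.65 without it. The brightest probeset (1455855_x_at), whose mean signal was nearly the same, had 6152, 5416 and 5112 on the Tg arrays, against 5492, 6488 and 5993 on the wt arrays, with overlap. In Srsf10, 1418527_a_at gave 609, 626 and 604 on the Tg arrays, against 460.4, 354 and 471 on the wt arrays. Every Tg array lay above every wt array, with a log2 fold change estimated at 0.51 (SE 0.15, adjusted p = 0.301), whereas the brightest probeset (1423982_at) gave 852, 519 and 638 on the Tg arrays, against 639.5, 877 and 829.6 on the wt arrays, with overlap and Tg 2 lowest.

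**Figure D3:**
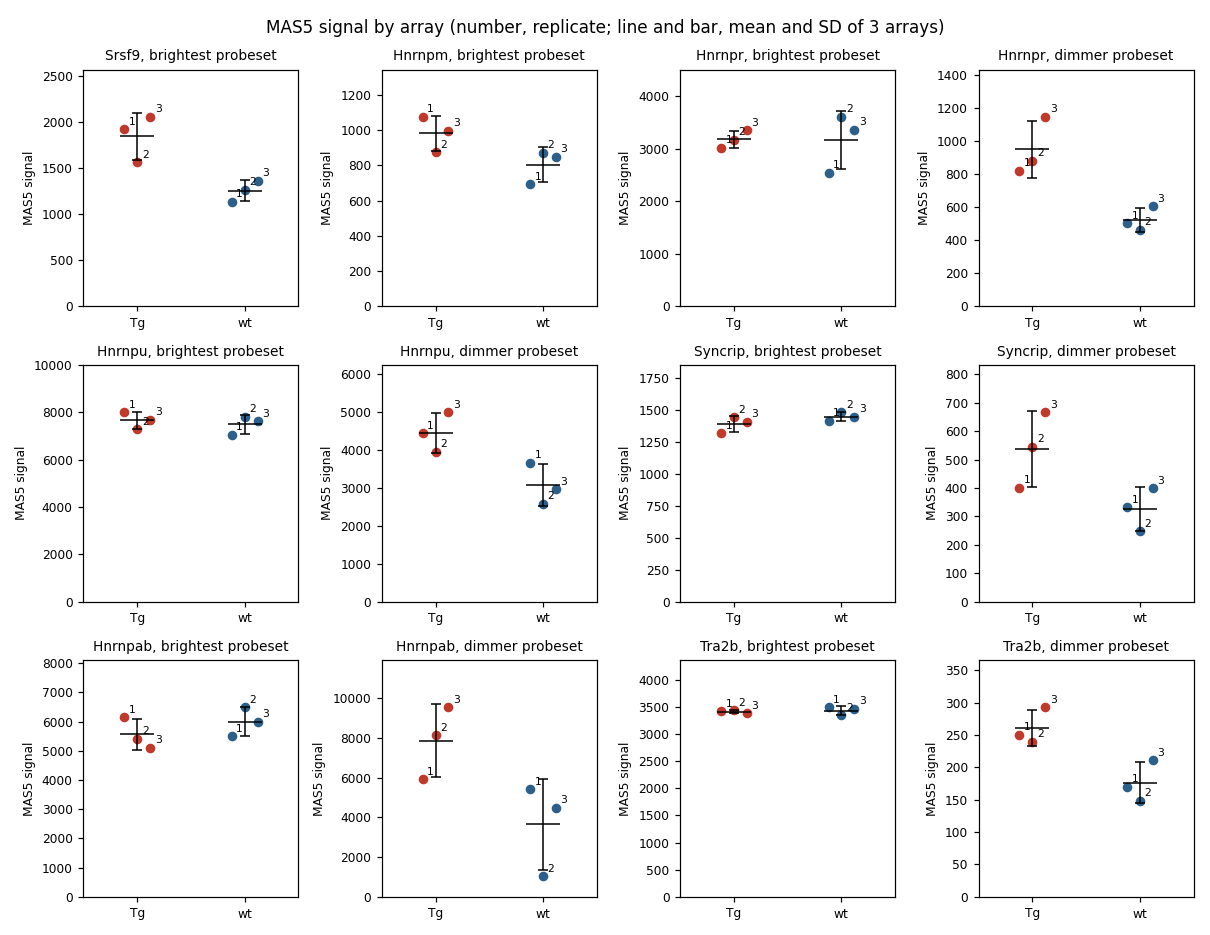
MAS5 signal (linear, arbitrary units) on each of the 3 Tg (left) and 3 wt (right) arrays, with mean and SD, for Srsf9 and Hnrnpm at the brightest probeset, and for Hnrnpr, Hnrnpu, Syncrip, Hnrnpab and Tra2b at the brightest and at 1 dimmer probeset. At the dimmer probesets all Tg arrays lie above all wt arrays, in Hnrnpab with wt 2 at 1038.9 far below the rest, while the brightest probesets of these 5 genes overlap. The dimmer probesets shown for Hnrnpr, Hnrnpu, Syncrip and Hnrnpab are on the study's list, which was drawn from these arrays. Tra2b, too, has a probeset on that list.

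Among the SR genes, Tra2a, Tra2b and Srsf11 have probesets on the study's list, which was drawn from these arrays. The direction of those probesets is therefore not evidence of its own. At 1441466_at, Tra2b gave 250.4, 239 and 292 on the Tg arrays, against 169.9, 148 and 211 on the wt arrays. The groups did not overlap there, and the log2 fold change was estimated at 0.53 (SE 0.22, adjusted p = 0.47). Tra2b also had no overlap at 1419543_a_at, at 0.19. Tra2a was above 0 at all 4 dimmer probesets, from 0.066 to 0.53. At the highest of these, 1442886_at, the signals were 320.5, 170.1 and 383 on the Tg arrays, against 252, 99.0 and 251 on the wt arrays, so that the groups overlapped. Srsf11 at 1439095_at had 579.9, 563 and 628 on the Tg arrays, against 609.8, 334 and 423 on the wt arrays, also with overlap. The log2 fold change there was 0.40, or 0.21 without wt 2. Over the 4 kept probesets of Srsf11 it ran from 0.022 to 0.50. Srsf3, which encodes the smallest SR protein, had no overlap at 1416151_at, with a log2 fold change estimated at 0.41 (SE 0.17, adjusted p = 0.461), and 0.21 without wt 1. The lower-lying probesets were fewer. Srsf2, which encodes SC35, had 401, 511 and 427 on the Tg arrays, against 637, 589.5 and 515 on the wt arrays at 1452439_s_at. Every Tg array lay below every wt array there, with a log2 fold change estimated at -0.37 (SE 0.16, adjusted p = 0.475), although the brightest probeset of Srsf2 was at 0.20 and 1427816_at was at 0.44 without overlap. Snrpd3, of the Sm ring, was likewise lower at 1449629_s_at, with 1129.8, 1091 and 874 on the Tg arrays, against 1196, 1245 and 1421 on the wt arrays and no overlap. Its brightest probeset was at 0.28, with wt 2 (864.3) far below the other 5 arrays, and the fold change at 1449629_s_at was -0.21 without Tg 3. These probesets of Srsf3, Srsf2 and Snrpd3 were chosen after their values were seen.

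Probesets of 1 gene often disagreed in sign, as they did over the whole table. In 23 of the 38 genes with several probesets, fold changes of both signs occurred (60.5%, against 58.5% of all 6780 such genes), and in 15 all were of 1 sign. Of the 96 dimmer probesets, 57 had the sign of their gene's brightest probeset (59.4%, against 53.6% of all dimmer probesets).

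**Figure D4:**
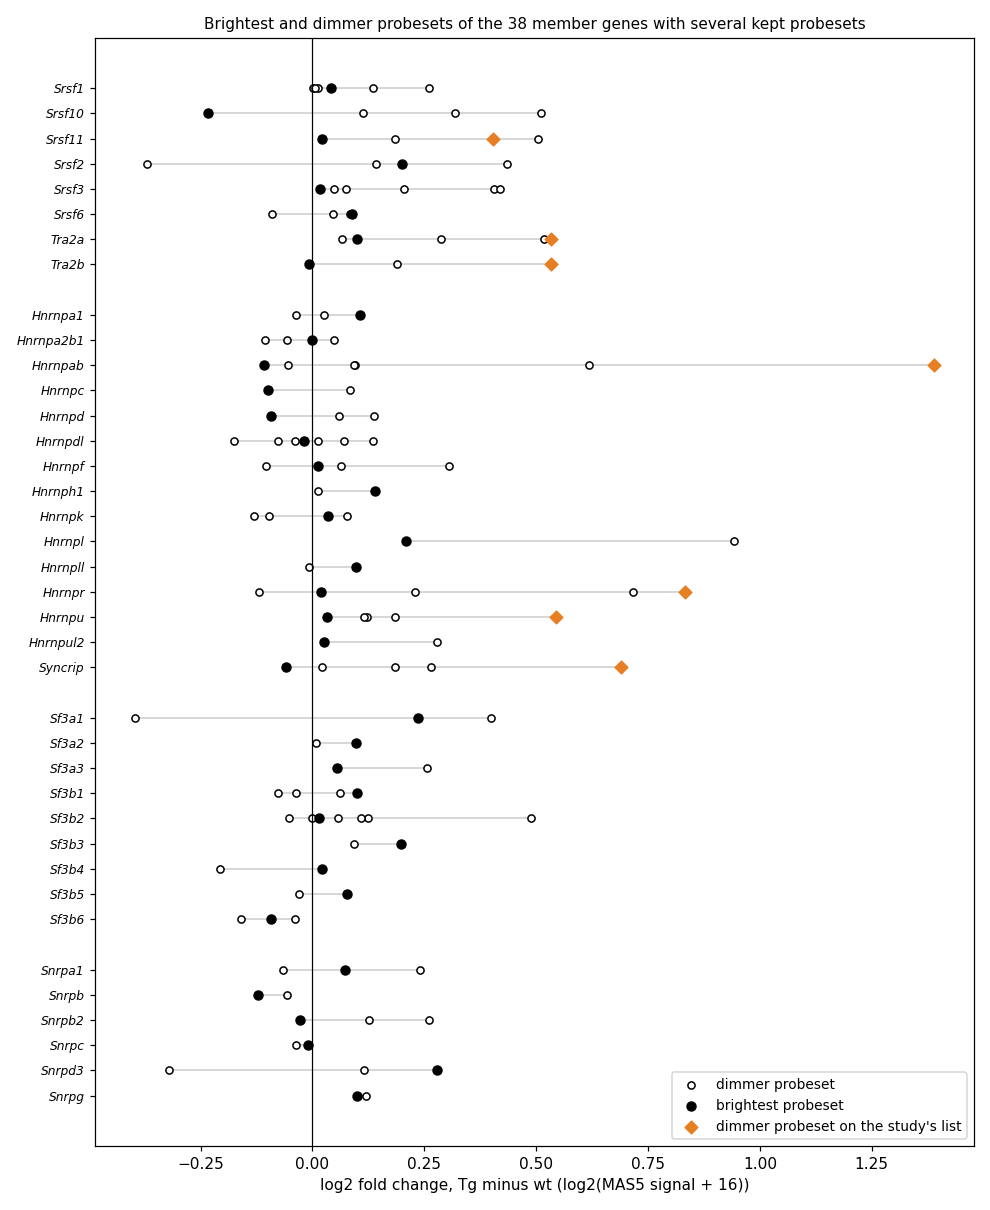
Log2 fold change, Tg minus wt (log2(signal + 16)), of every kept probeset of the 38 genes with several, 1 gene per line, with the brightest probeset filled, the dimmer ones open and those on the study's list as diamonds. The dimmer probesets spread wider than the brightest ones, up to 1.39 in Hnrnpab.

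The difference between a dimmer probeset and the brightest one of its gene was then taken on each array, which removes any scaling of the whole array, and compared between Tg and wt in 1 limma fit over all 11990 such pairs. Of the 96 pairs of the splicing factor and hnRNP genes, 59 (61.5%) were above 0, with a median of 0.072, against 62.5% and a median of 0.097 over all pairs. After quantile normalization 55 were above 0 (57.3%, against 57.4% of all pairs). Limma called 0 of the 96 and 0 of all pairs (0%), and Cyber-T called 0 of the 96 and 3 of all. At an unadjusted p under 0.05, 7 of the 96 lay above 0 (7.29%, against 7.52% of all pairs) and 3 below 0 (3.12%, against 2.01%), and without wt 1 these counts were 14 (14.6%, against 9.82%) and 5 (5.21%, against 2.58%). The groups did not overlap in 10 pairs that were higher in Tg (10.4%, against 11.1%) and in 5 that were lower (5.21%, against 3.94%). Without the 7 probesets of the study's list, 3 of 89 lay above 0 and 3 below 0 at an unadjusted p under 0.05. The shares above 0 are close to those of the whole table.

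The pair with the smallest p was Hnrnpr 1438807_at, at 0.81 (SE 0.19, adjusted p = 0.441), and the other probeset of Hnrnpr without overlap, 1452030_a_at, was at 0.70 (SE 0.19, adjusted p = 0.441). Hnrnpu 1450849_at followed at 0.51 (SE 0.15, adjusted p = 0.441), Syncrip 1422769_at at 0.75 and Srsf10 1418527_a_at at 0.75. In Hnrnpr, Hnrnpu and Syncrip the 3 Tg values lay above the 3 wt values, and in Srsf10 they overlapped. Hnrnpab 1426114_at had the largest value of these, 1.50 (SE 0.48, adjusted p = 0.441), but its groups overlapped and it was 0.70 without wt 2. On the study's list from these arrays are Hnrnpr 1438807_at, Hnrnpu 1450849_at, Syncrip 1422769_at and Hnrnpab 1426114_at. Below 0, Snrpd3 1449629_s_at, Srsf2 1452439_s_at and Sf3a1 1419087_s_at had -0.60, -0.57 and -0.63, each without overlap, but the value was -0.36 for Snrpd3 without wt 2 and -0.39 for Sf3a1 without Tg 2. These 3 were the only pairs of the 96 below 0 at an unadjusted p under 0.05, and they were named after their values were seen. Sf3a1 encodes a subunit of SF3A.

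The 9 probesets below the filter belong to 8 genes and were not tested. In 8 of them the groups overlapped. The exception was Srsf1 1457136_at, with mean signals of 81.8 ± 16.9 in Tg and 19.7 ± 7.25 in wt (SD, n = 3 each), where every Tg array lay above every wt array. A further 18 probesets match a symbol of these families together with another gene and were not used, and 5 genes (Hnrnpa3, Hnrnpa1l2-ps2, Snrpa, Snrpd1 and Snrpd2) are on such shared probesets alone.

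Beyond these families, 92 other genes of splicing were looked up, among them splicing kinases, helicases, core spliceosome proteins and neuronal regulators, and 86 had a kept probeset of their own. At the brightest probeset, 49 of the 86 had a fold change above 0 (57%, against 44.1% of all genes), with a median of 0.0091. Without wt 1 the count was 38 (44.2%, against 42.9%), and without Tg 1 it was 41 (47.7%, against 45.4%). Limma called 0 of the 86 and Cyber-T called 1, Sfpq (adjusted p by Cyber-T = 0.0373). At an unadjusted p under 0.05, 4 were higher in Tg (Sfpq, Srrm1, Srpk2 and Luc7l2; 4.65%, against 2.9% of all genes) and 1 was lower (Dhx15; 1.16%, against 4.97%). Sfpq, which encodes a splicing and paraspeckle protein, had signals of 4238, 3573 and 4630.5 on the Tg arrays, against 2832, 1897 and 3066 on the wt arrays, and its log2 fold change was 0.69 (adjusted p = 0.227). Its probeset is on the study's list. The log2 fold changes of the other 4 were 0.27 for Srrm1, 0.30 for Srpk2, 0.26 for Luc7l2 and -0.26 for Dhx15, with Luc7l2 at 0.14 without wt 2, and with adjusted p from 0.414 to 0.472. Srrm1 encodes a coactivator that joins SR proteins, Srpk2 a kinase of SR proteins, Luc7l2 a protein of the U1 particle and Dhx15 a helicase that takes spliceosomes apart.

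The promoter sequences of these genes were described as well. RefSeq promoter windows on the GRCm38.p6 build, which run from 250 bases before to 50 bases after the start of a transcript, were found for 47 of the 53 genes (64 windows). Their median CpG count was 25, against 7 over all 32851 windows. The motif CCGGAAG, a core bound by ETS factors, was searched on both strands and was present in 20 of 64 windows (31.2%), against 8.86% of all windows. Counted by gene, it was present in 15 of 47 (31.9%, against 9.93% of all genes). By family, these were 6 of 7 SF3 genes, 4 of 8 Snrp genes, 3 of 12 SR genes, 2 of 18 hnRNP genes and 0 of 2 U2af genes. Among windows with at least 22 CpG, it was present in 32.0% of 50 windows of these genes and in 19.4% of 7588 windows in all, so that the gap to all windows was narrower there. The TATA box letters TATAAA, on either strand, were in 9.38% of the 64 windows, against 13.6% of all.

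Windows of 3 genes are shown, Sf3a3 and Snrpe as examples of promoters with CCGGAAG in the families where it was most frequent, and Srsf9 as the gene with the smallest p at its brightest probeset. Capitals mark CCGGAAG or its reverse complement, which lie 90 bases before the start in Sf3a3 and, on both strands and overlapping, from bases 4 and 7 after the start in Snrpe. The window of Srsf9 holds none. The windows are chr4:124714611-124714910, plus strand, chr1:133610231-133610530, minus strand, and chr5:115326927-115327226, plus strand, each written 5′ to 3′ along the gene.
Sf3a3: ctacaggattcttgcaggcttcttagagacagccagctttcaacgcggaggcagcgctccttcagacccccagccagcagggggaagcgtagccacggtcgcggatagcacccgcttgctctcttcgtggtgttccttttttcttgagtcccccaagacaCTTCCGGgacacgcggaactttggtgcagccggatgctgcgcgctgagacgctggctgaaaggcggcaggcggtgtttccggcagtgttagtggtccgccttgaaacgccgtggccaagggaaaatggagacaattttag
Snrpe: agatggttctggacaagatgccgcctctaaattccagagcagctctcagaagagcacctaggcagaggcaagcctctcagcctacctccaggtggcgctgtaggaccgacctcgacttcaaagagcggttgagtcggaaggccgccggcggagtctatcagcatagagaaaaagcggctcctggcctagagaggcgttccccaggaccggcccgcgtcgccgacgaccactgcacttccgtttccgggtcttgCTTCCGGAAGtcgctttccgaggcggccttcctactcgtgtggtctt
Srsf9: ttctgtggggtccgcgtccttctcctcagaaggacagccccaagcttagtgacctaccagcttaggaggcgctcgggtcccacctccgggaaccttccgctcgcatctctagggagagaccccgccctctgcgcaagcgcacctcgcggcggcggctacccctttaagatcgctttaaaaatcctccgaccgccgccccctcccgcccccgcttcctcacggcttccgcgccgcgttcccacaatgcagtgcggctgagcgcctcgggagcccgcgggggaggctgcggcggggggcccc
A match of these letters is a description of the sequence and was not set against the expression values.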

How the data were processed

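Hippocampal RNA of 3 Tg and 3 wt mice was measured with 1 array per mouse. The deposited values are intensities, 1 MAS5 signal per probeset and array on a linear scale, scaled by the authors' software to an equal trimmed mean on every array. RMA values and absence calls, on which the study's own SAM and Cyber-T lists rest, were not used here. Of 45101 probesets, 64 controls were set aside, 34945 of the others are annotated to 1 gene, 932 to several and 9160 to none, and the lowest 31% by mean level stand in for absence calls.

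Signals were taken as log2(signal + 16) and fitted in R 4.3.3 by limma 3.58.1, two-sided, with group means and an intensity trend in the moderated variances, with Benjamini-Hochberg adjustment over all kept probesets, and calls were made at an adjusted p under 0.05. The scripts were tested on simulated data with known differences. The small number of arrays limits the precision. Cyber-T was given a confidence of 10 and a 101-probeset window. The genes and lists were chosen with earlier results of these data known. By rule, the text names the 3 members of each family with the highest mean signal, those on the study's list, the 5 with the smallest p in each direction and the 6 dimmer probesets with the smallest p within a gene. The alternatives were other added constants, scalings, filters, variance models, Cyber-T, the replicate number as a block, a gene's mean over its probesets, and each array left out in turn. The fit without wt 1 and wt 2 was chosen after seeing the data. Figures were drawn with matplotlib 3.10.9.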

Additional observations from a re-analysis of the deposited data

How the results depend on the processing

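Limma called none of the 53 brightest, 96 dimmer or 96 paired probesets of these genes under any scaling, filter, variance model or left-out array tried. Cyber-T called 1 dimmer probeset (Hnrnpr 1438807_at), which is on the study's list from these arrays. Over all kept probesets, limma called 0, Cyber-T 49, the fit with the replicate block 1 and the fits that left out an array 0 to 6 (6 without Tg 2, 1 without wt 1 and 1 without wt 3), while 1521 were higher and 627 lower at 1.3-fold with an unadjusted p under 0.05. At an unadjusted p under 0.05, the brightest probesets higher in Tg numbered 1 (1.89%, against 2.9% of all genes). The count was 2 by Cyber-T (3.77%, against 3.1%), 2 with no filter (3.77%, against 2.94%) and 2 after quantile normalization (3.77%, against 2.74%). With a gene's mean over its probesets it was 8 (15.1%, against 4.59%). Those means take in the dimmer probesets on the study's list, which were chosen on these arrays, and no count was made without them. With an array left out, the count at the brightest probesets ran from 1 to 4. It was 4 without wt 2 (7.55%, against 2.78%) and 3 without wt 1 (5.66%, against 3.36%). Without any 1 Tg array it was 2 (3.77%, against 2.1% to 2.67%). Those lower numbered 0 to 1 with an array left out (1 without Tg 1, or 1.89%, against 4.02%). The dimmer probesets higher in Tg numbered 10 (10.4%, against 7.73% of all dimmer probesets), and 6 with arrays centred on the median (6.25%, against 5.23%). With an array left out they numbered 7 to 13, with 7 without Tg 3 (7.29%, against 4.45%) and 13 without wt 3 (13.5%, against 8.16%). The dimmer ones lower in Tg numbered 2 (2.08%, against 2.84%), 1 without the trend (1.04%, against 2.5%) and 1 to 4 with an array left out. They numbered 4 without wt 1 (4.17%, against 2.98%) and 1 without Tg 1, Tg 3, wt 2 or wt 3 (1.04%, against 2.38% to 2.66%). The pairs above 0 numbered 7 (7.29%, against 7.52% of all pairs), and 6 to 14 with an array left out, with 14 without wt 1 (14.6%, against 9.82%). Pairs below 0 numbered 3 (3.12%, against 2.01%), and 2 to 5 with an array left out, with 5 without wt 1 (5.21%, against 2.58%). The cause of these shifts was not tested.

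The Tg and wt arrays of 1 replicate number correlated in their deviations at -0.016, 0.00781 and 0.0334, all near 0. Tg 2 and Tg 3, but not Tg 1, correlated best with the wt array of their own number. The replicate numbers thus gave no clear pairing. With the replicate number as a block, the counts at an unadjusted p under 0.05 were 1 above and 0 below for the brightest probesets (1.89% and 0%, against 2.85% and 4.92% of all genes). For the dimmer ones they were 11 and 2 (11.5% and 2.08%, against 8.06% and 2.75%), and for the pairs 6 and 3 (6.25% and 3.12%, against 6.96% and 1.9%). The block changed no call of these genes. None of the named genes and probesets was called by limma, so there was no called direction to keep or reverse. Over the alternatives, 42 of their values had the opposite sign, 767 were counted as unchanged and 1 as stronger. With 3 arrays a group, small differences were not detectable.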
